A study of Mus musculus with 12 samples.

Results

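Eph receptors and their membrane-bound ligands, the ephrins, were followed through 12 RNA-seq libraries of sorted mouse crypt cells. The 7 members are the receptors Ephb2, Ephb3, Ephb4 and Epha2 and the ephrins Efnb1, Efnb2 and Efna1. They were taken as the rows of the deposited count table whose Ensembl identifier carries 1 of these symbols in the GENCODE annotation, which gave 7 of the 55414 genes in the table. The rule for taking rows used no measured value, although the members were chosen with earlier results of these data known. All 7 passed the filter on low counts that left 13057 genes for testing.

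All libraries came from crypt epithelium of the small intestine of C57BL/6J mice, with no challenge named. Crypts were made into single cells and sorted by flow cytometry into Paneth cells and non-Paneth cells. Each fraction was collected from WT mice and from GRvillinKO mice, called GRKO here, which lack the glucocorticoid receptor, the product of Nr3c1, where villin drives the recombinase. The 4 groups, WT Paneth, GRKO Paneth, WT non-Paneth and GRKO non-Paneth, held 3 libraries each. The mice were 8 to 12 weeks old. The Paneth gate selected for CD24 and cKIT and against CD31, CD45 and TER119, whereas for the other fraction no gate is named. The question put to the members was whether they differ between Paneth cells and the rest of the crypt, and whether the deletion moves them in either fraction.

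Eph receptors are receptor tyrosine kinases, and ephrins are carried on the surface of the neighbouring cell, by a lipid anchor in the A class and by a membrane-spanning stretch in the B class. Binding sends signals into both cells and often ends in repulsion, so that cells with much receptor and cells with much ligand sort apart. In the small intestine Ephb2 and Ephb3 are known as Wnt targets of the crypt base, Efnb1 and Efnb2 are known for the opposite gradient towards the villus, and Ephb3 is needed to hold Paneth cells at the base. Ephb4 binds Efnb2 and is best known from veins, whereas Epha2 binds Efna1 at epithelial contacts.

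The upstream promoter sequences of 4 members are shown because these members carry the results on the receptors of the crypt base and on the receptor and the ligand with the lowest levels in Paneth cells. Each is the 250 bases before the transcription start that RefSeq gives (the table's build is GRCm38.p6), and its position was found by an exact match in GRCm39. Sequences are in the direction of the gene, and capitals mark a match to the TCF/LEF core CTTTGA or to the glucocorticoid receptor half-site TGTTCT, searched on both strands.
Ephb2, chr4:136563324-136563573, minus strand: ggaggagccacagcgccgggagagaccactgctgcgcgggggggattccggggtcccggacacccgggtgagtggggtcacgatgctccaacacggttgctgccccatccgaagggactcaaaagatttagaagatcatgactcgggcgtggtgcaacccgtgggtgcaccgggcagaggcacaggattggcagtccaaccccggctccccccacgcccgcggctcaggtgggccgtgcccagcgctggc
Ephb3, chr16:21023295-21023544, plus strand: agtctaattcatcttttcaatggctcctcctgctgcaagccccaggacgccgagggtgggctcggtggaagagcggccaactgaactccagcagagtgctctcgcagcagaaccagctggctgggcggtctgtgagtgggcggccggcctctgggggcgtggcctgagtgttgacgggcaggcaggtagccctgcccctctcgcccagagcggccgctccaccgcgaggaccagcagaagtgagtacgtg
Epha2, chr4:141028282-141028531, plus strand: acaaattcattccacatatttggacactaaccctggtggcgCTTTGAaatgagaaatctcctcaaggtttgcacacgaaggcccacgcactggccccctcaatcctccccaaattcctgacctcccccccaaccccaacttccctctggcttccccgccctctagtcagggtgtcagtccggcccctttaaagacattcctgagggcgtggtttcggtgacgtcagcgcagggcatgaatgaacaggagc
Efnb2, chr8:8711243-8711492, minus strand: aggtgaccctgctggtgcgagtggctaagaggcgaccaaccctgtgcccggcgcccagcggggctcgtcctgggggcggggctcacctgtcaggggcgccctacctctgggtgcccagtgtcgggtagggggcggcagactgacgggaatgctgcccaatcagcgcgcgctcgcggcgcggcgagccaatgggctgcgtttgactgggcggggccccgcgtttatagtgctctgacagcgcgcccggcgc
All 7 members were found in the RefSeq table, with 8 windows because Efna1 has a pair of starts. The TCF/LEF core occurred in 1 window, that of Epha2, on the coding strand from 209 to 204 bases before the start. In all promoters of the table, 13.8% of 32851 windows of this length hold it on either strand. The half-site, which 16.1% of the windows hold, did not occur in these letters for any member, and with 1 match no motif overlapped another. The windows were rich in G and C, from 55.6% in Epha2 to 72.0% in Efnb2.

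The deletion was visible in the target itself. Nr3c1 lay between 33.0 and 41.1 CPM (counts scaled to the same total of all gene counts per library) in WT Paneth and between 4.73 and 12.1 CPM in GRKO Paneth libraries, and in non-Paneth libraries between 135 and 160 CPM in WT and between 19.6 and 36.2 CPM in GRKO, so that the groups did not overlap. The totals ran from 11126297 to 15910292 counts per library. The 8 Paneth markers summed to between 357104 and 445584 CPM in Paneth libraries and to at most 1695 CPM in non-Paneth libraries. Xist stood at 127 and 257 CPM in the Paneth and non-Paneth libraries of WT replicate 2 and at no more than 0.52 CPM in the other 10 libraries. Because Lyz1 and the Defa genes took 44.6% of the counts in WT Paneth and 42.0% in GRKO Paneth libraries on average, against under 1% in the others, fold changes below are taken after TMM scaling, which sets the bulk of the genes level, and CPM are given unscaled.

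Scaling decides part of what follows. When libraries were scaled by their totals only, the median over all tested genes of the log2 fold change moved from 0.01 to -0.68 for WT Paneth against WT non-Paneth, from -0.08 to -1.05 for the same comparison in GRKO, from 0.02 to 0.31 for GRKO against WT non-Paneth and from -0.01 to -0.28 for the interaction. The share of calls that were higher moved with it, from 47.3% to 12.2%, from 45.8% to 7.57%, from 46.9% to 74.6% and from 61.2% to 29.1% in the same order, and in GRKO against WT Paneth, where only 2 genes were called, from 52.9% to 0%. With RLE factors the share was 68.3% in the interaction. Changes are reported relative to the bulk of the genes.

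Per kb of exon, Ephb4 and Ephb3 were the most abundant members in Paneth cells, and Ephb3 the least abundant in WT non-Paneth cells. In WT Paneth cells Ephb4 had a level of 20.4 ± 3.23 and Ephb3 of 17.1 ± 0.546 CPM per kb (SD, n = 3). Their ranges overlapped, and so did those of the next members in order, Efna1 at 10.2 ± 2.47, Efnb1 at 7.6 ± 1.18 and Ephb2 at 6.88 ± 0.754 CPM per kb, while Ephb3 stood clear of Efna1. Epha2 at 1.16 ± 0.286 and Efnb2 at 0.756 ± 0.33 CPM per kb closed the order and overlapped each other. GRKO Paneth cells kept Ephb3 at 21.5 ± 2.5 and Ephb4 at 21.0 ± 4.49 CPM per kb in front, with ranges that overlapped, and Epha2 at 1.32 ± 0.474 CPM per kb last.

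In WT non-Paneth cells the order was Efnb1 at 27.1 ± 2.53, Ephb4 at 25.7 ± 2.42, Efna1 at 22.9 ± 4.04, Epha2 at 16.9 ± 0.769, Efnb2 at 8.42 ± 1.34, Ephb2 at 7.77 ± 0.251 and Ephb3 at 5.08 ± 1.06 CPM per kb. The first 3 overlapped one another in this order, as did Efnb2 and Ephb2. In GRKO non-Paneth cells Ephb4 led alone at 50.4 ± 2.25 CPM per kb, ahead of Efnb1 at 28.9 ± 1.25, Ephb2 at 17.1 ± 1.34 and Efna1 at 14.0 ± 2.84, the last pair with overlapping ranges. Ephb3 at 7.76 ± 0.2, Efnb2 at 6.6 ± 0.604 and Epha2 at 6.09 ± 0.35 CPM per kb followed. These levels rest on all annotated exons, which for Efna1 are 2.32 and for Ephb3 1.65 times as long as the canonical transcript. With the canonical length Ephb3 came first and Ephb4 behind Efna1 in WT Paneth cells, and Efna1 came first in WT non-Paneth cells.

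Ephb3, a receptor of the crypt base, was the member most enriched in Paneth cells. It stood at 122, 116 and 116 CPM in the 3 WT Paneth libraries against 43.4, 32.3 and 29.7 CPM in WT non-Paneth libraries. In GRKO mice it stood at 134, 168 and 144 CPM in Paneth against 54.0, 52.2 and 54.9 CPM in non-Paneth libraries. Every Paneth library was above every non-Paneth library of both genotypes. Ephb3 (chromosome 16, 21023495 to 21042057, plus strand, GRCm39) was 5.49-fold higher in WT Paneth cells (log2 fold change 2.46, SE 0.143, adjusted p = 5.91e-09) and 5.45-fold higher in GRKO Paneth cells (log2 2.45, SE 0.142, adjusted p = 8.52e-09). GRKO did not pass the test against WT in Paneth cells (log2 0.31, 95% interval 0.03 to 0.60, adjusted p = 0.154) or in non-Paneth cells (log2 0.33, interval 0.03 to 0.62, adjusted p = 0.076), and the interaction was -0.01 with an interval from -0.42 to 0.40. When libraries were scaled by their totals only, the value in non-Paneth cells was 0.61 with an adjusted p of 0.00456, and without WT non-Paneth replicate 1 it was 0.44 with an adjusted p of 0.0157.

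Ephb2, the other B receptor of the crypt base, had 93.6, 76.2 and 91.7 CPM in WT Paneth and 96.7, 96.4 and 102 CPM in WT non-Paneth libraries. GRKO Paneth libraries had 87.7, 137 and 110.2 CPM, and GRKO non-Paneth libraries had 236, 208 and 205 CPM. The GRKO non-Paneth libraries lay above the other 9 on unscaled CPM. After TMM scaling the GRKO fractions overlapped. The highest library was then GRKO Paneth replicate 2, at 168.4 against at most 162.0 TMM-scaled CPM in GRKO non-Paneth libraries. Ephb2 (chromosome 4, 136374850 to 136563351, minus strand) rose 1.80-fold in GRKO against WT non-Paneth cells (log2 0.85, SE 0.116, adjusted p = 8.02e-05) and had a log2 difference of 0.33 (interval 0.09 to 0.58, adjusted p = 0.0928) in Paneth cells, which was called by DESeq2 (0.33, adjusted p = 0.0393) and without GRKO Paneth replicate 1 (0.40, adjusted p = 0.0427). Relative to the bulk of the genes it was 1.44-fold higher in WT Paneth than in WT non-Paneth cells (log2 0.52, adjusted p = 0.00149), but on library totals the direction turned, to a log2 difference of -0.17 (adjusted p = 0.333). In GRKO the same difference was 0.00 with an interval from -0.24 to 0.25, and on library totals it was -0.96 (adjusted p = 3.5e-05). The interaction, the log2 genotype difference in Paneth cells minus that in non-Paneth cells, was -0.52 (SE 0.163, adjusted p = 0.0383), and this call was lost in 12 of 22 alternatives, among them leaving out 9 of the 12 libraries 1 at a time.

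Ephb4, whose ligand is Efnb2, followed Ephb2 closely across the libraries, with a Pearson r of 0.88 over the 12 libraries, which share the scaling and the 4 groups. It had 117, 85.0 and 106 CPM in WT Paneth, 83.6, 129 and 105 CPM in GRKO Paneth, 133, 116 and 139 CPM in WT non-Paneth and 266, 251 and 243 CPM in GRKO non-Paneth libraries. On unscaled CPM the 3 GRKO non-Paneth libraries again lay above all others, and for Ephb4 they also did after TMM scaling. Ephb4 (chromosome 5, 137348274 to 137376931, plus strand) rose 1.61-fold in GRKO against WT non-Paneth cells (log2 0.68, SE 0.116, adjusted p = 0.000428), while the difference in Paneth cells was 0.03 with an interval from -0.22 to 0.27. The interaction was -0.66 (SE 0.165, adjusted p = 0.0134). Between fractions, Ephb4 was 1.28-fold higher in WT Paneth cells (log2 0.36, adjusted p = 0.0174), a call that turned to -0.33 (adjusted p = 0.083) on library totals and that was lost without WT Paneth replicate 3 (adjusted p = 0.0513). It was also lost with no filter on low counts (0.31, adjusted p = 0.147). In GRKO it had a log2 difference of -0.30 (adjusted p = 0.0545), which became -0.40 (adjusted p = 0.0192) without GRKO Paneth replicate 2 and -1.26 (adjusted p = 3.91e-06) on library totals. Of the 6 endothelial markers, Cdh5, Kdr and Emcn had no counts in any library, while Pecam1, Tek and Tie1 had few. Together the 6 summed to at most 2.15 CPM. Tek, the only endothelial marker tested, was called higher in GRKO Paneth than in GRKO non-Paneth cells (log2 2.69, adjusted p = 0.00335). It ran from 0.799 to 2.0 CPM in the former and from 0.0637 to 0.612 CPM in the latter.

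Epha2, the A receptor, was the least abundant of the 4 receptors in Paneth cells of both genotypes. It stood at 6.98, 4.87 and 4.49 CPM in WT Paneth and at 83.2, 76.1 and 78.9 CPM in WT non-Paneth libraries. GRKO mice had 4.88, 8.74 and 4.91 CPM in Paneth against 28.2, 30.3 and 27.1 CPM in non-Paneth libraries. WT non-Paneth, GRKO non-Paneth and Paneth libraries thus formed 3 steps with no overlap, and the Paneth libraries of both genotypes overlapped. Epha2 (chromosome 4, 141028540 to 141056695, plus strand) was 8.97-fold lower in WT Paneth cells (log2 -3.17, SE 0.183, adjusted p = 5.43e-09) and 2.36-fold lower in GRKO Paneth cells (log2 -1.24, SE 0.176, adjusted p = 5.42e-05). It was 3.40-fold lower in GRKO than in WT non-Paneth cells (log2 -1.76, SE 0.162, adjusted p = 5.18e-06), and the genotype difference in Paneth cells was 0.16 with an interval from -0.25 to 0.57. The interaction of 1.93 (SE 0.25, adjusted p = 0.000326) passed the test in all 22 alternatives.

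**Figure D1:**
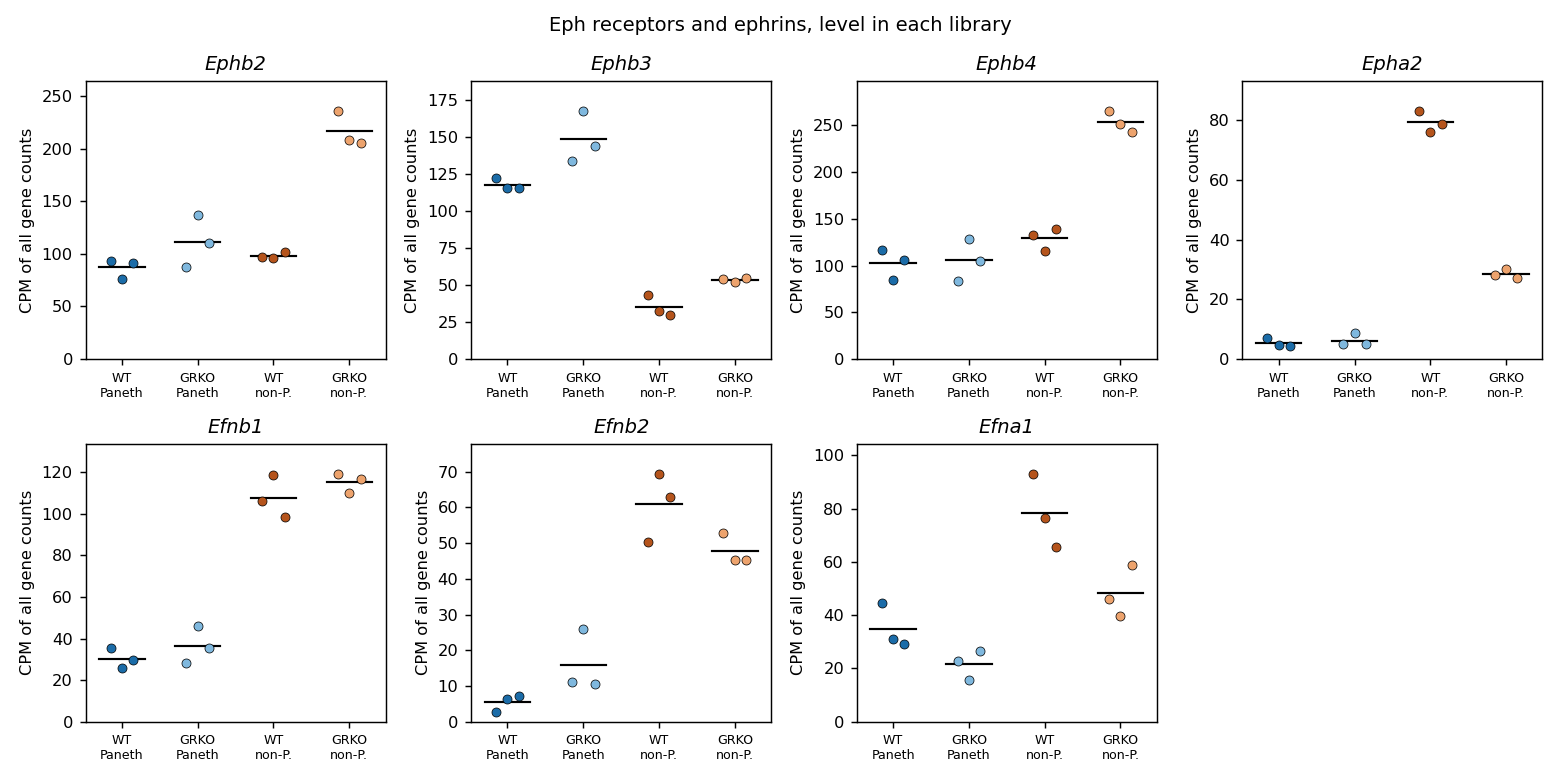
Level of each member in CPM of all gene counts (vertical axes, from 0) in the 12 libraries, with 1 point per library and a line at the mean of each group of 3 (non-P. stands for non-Paneth). Ephb3 is high in both Paneth groups, and on this unscaled axis Ephb2 and Ephb4 are highest in the 3 GRKO non-Paneth libraries. After TMM scaling Ephb2 overlaps between the GRKO Paneth and GRKO non-Paneth libraries. Epha2 falls in 3 steps from WT non-Paneth to GRKO non-Paneth to Paneth libraries.

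Efnb1, a B ephrin encoded on the X chromosome, was lower in Paneth cells of both genotypes. It stood at 35.3, 26.0 and 29.6 CPM in WT Paneth, 28.1, 45.8 and 35.6 CPM in GRKO Paneth, 106, 118 and 98.4 CPM in WT non-Paneth and 119, 109.7 and 117 CPM in GRKO non-Paneth libraries. No Paneth library reached the lowest non-Paneth library. Efnb1 (chromosome X, 98179680 to 98205454, plus strand) was 2.20-fold lower in WT Paneth cells (log2 -1.14, SE 0.128, adjusted p = 2.77e-06) and 1.62-fold lower in GRKO Paneth cells (log2 -0.70, SE 0.126, adjusted p = 0.000463). GRKO did not pass the test against WT in Paneth cells (log2 0.25, interval -0.02 to 0.53) or in non-Paneth cells (log2 -0.19, interval -0.45 to 0.07), the latter turning to 0.10 on library totals. Without both libraries of WT replicate 2, which carried Xist, the WT difference between fractions was -1.02 (adjusted p = 0.00021).

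Efnb2, the ligand of Ephb4 and of the other B receptors, was scarce in WT Paneth cells. It stood at 2.74, 6.49 and 7.19 CPM there and at 50.3, 69.5 and 63.0 CPM in WT non-Paneth libraries. GRKO Paneth libraries had 11, 25.9 and 10.6 CPM, all above WT Paneth, and GRKO non-Paneth libraries had 52.9, 45.2 and 45.4 CPM. The second GRKO Paneth library was set apart from the other 2. Efnb2 (chromosome 8, 8667226 to 8711249, minus strand) was 6.78-fold lower in WT Paneth than in WT non-Paneth cells (log2 -2.76, SE 0.397, adjusted p = 0.000173). In GRKO the difference was -0.64 (interval -1.43 to 0.15, adjusted p = 0.185), and it was called at -1.11 (adjusted p = 0.0206) without GRKO Paneth replicate 2, at -1.59 (adjusted p = 0.00119) on library totals and at -0.71 (adjusted p = 0.000147) with no filter on low counts. GRKO against WT gave a log2 difference of 1.48 (interval 0.59 to 2.37, adjusted p = 0.0616) in Paneth cells, which DESeq2 called (1.46, adjusted p = 0.00231) and which was called without GRKO Paneth replicate 1 (1.62, adjusted p = 0.0472), and of -0.64 (interval -1.40 to 0.12, adjusted p = 0.171) in non-Paneth cells. With no filter the Paneth value was called with an adjusted p of 1.85e-13 and the non-Paneth value at -0.61 (adjusted p = 0.0011), and a fit restricted to both non-Paneth groups called the latter at -0.63 (adjusted p = 0.00257).

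The genotype difference in Efnb2 itself differed between the fractions, with an interaction of 2.12 (SE 0.529, adjusted p = 0.02). It was 1.60 (adjusted p = 0.0719) without both GRKO libraries of replicate 2, an alternative chosen after seeing the data. Those libraries also held the most tuft cell transcripts of their groups. The 5 tuft markers, all detected in each group, summed to 668, 1080 and 361 CPM in the GRKO Paneth libraries, 150, 238 and 383 CPM in WT Paneth, 307, 456 and 107 CPM in GRKO non-Paneth and 4.27, 11.3 and 7.94 CPM in WT non-Paneth libraries. Their part in the result was not tested.

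Efna1, the A ephrin that binds Epha2, had 44.7, 31.2 and 29.0 CPM in WT Paneth, 22.9, 15.8 and 26.4 CPM in GRKO Paneth, 93.2, 76.6 and 65.6 CPM in WT non-Paneth and 46.0, 39.7 and 58.8 CPM in GRKO non-Paneth libraries. Within each fraction every GRKO library was below every WT library. Efna1 (chromosome 3, 89179037 to 89188449, minus strand) fell 1.99-fold in GRKO against WT non-Paneth cells (log2 -0.99, SE 0.216, adjusted p = 0.00299). In Paneth cells the genotype difference was -0.68 (interval -1.16 to -0.20, adjusted p = 0.0858), called by DESeq2 (adjusted p = 0.0392) and with no filter on low counts (-0.66, adjusted p = 0.00129), and the interaction was 0.31 with an interval from -0.36 to 0.98. Between fractions Efna1 did not pass the test in WT (log2 -0.47, SE 0.217, adjusted p = 0.0861) or in GRKO (log2 -0.16, SE 0.221, adjusted p = 0.603). With a replicate block, which pairs the same-numbered fractions of both genotypes, the WT value was -0.47 with an adjusted p of 0.0057. On library totals both differences were called, at -1.16 (adjusted p = 0.000155) in WT and -1.15 (adjusted p = 0.000136) in GRKO, and the WT value was also called with no filter (-0.53, adjusted p = 0.00304) and in a fit restricted to the WT libraries (-0.48, adjusted p = 0.0478).

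Set side by side, 3 of the 7 members were higher and 3 lower in WT Paneth than in WT non-Paneth cells, where 24% of all genes tested were higher and 26.7% lower. In GRKO mice 1 member was higher and 2 were lower, with 17.9% and 21.2% of all genes. For GRKO against WT in Paneth cells no member was called in either direction by edgeR, and 1.7% of all genes were higher and 1.52% lower. There 4 members had an unadjusted p under 0.05, beside 26.7% of all genes, and DESeq2 called 3, beside 12.3% of the 11931 genes to which it gave an adjusted p. In non-Paneth cells 2 members were higher and 2 lower, with 17.5% of all genes higher and 19.8% lower. The interaction was called for 2 members in each direction, with 11.5% of all genes above and 7.27% below 0. The median log2 fold change of the members was -0.47, -0.30, 0.25, -0.19 and 0.31 in the 5 comparisons. In bulk libraries, fewer cells of a type and less RNA per cell cannot be told apart. The comparisons share groups of libraries, so that the columns of the plot of fold changes are not independent.

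**Figure D2:**
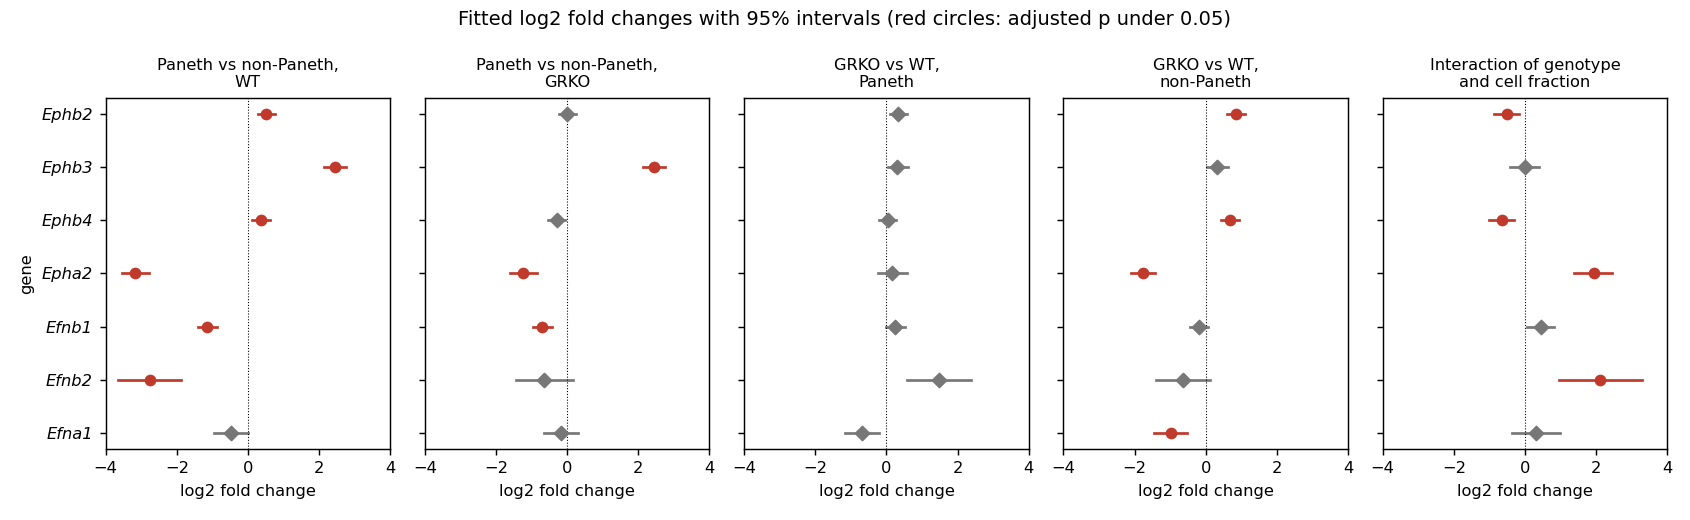
Fitted log2 fold change of each member (horizontal axes) with its 95% interval in the 5 comparisons, where red circles passed an adjusted p of 0.05 in edgeR's quasi-likelihood test and grey diamonds did not. Ephb3 stands at 2.46 and 2.45 for Paneth against non-Paneth in WT and GRKO, while Epha2 moves from -3.17 to -1.24 and Efnb2 from -2.76 to -0.64. On library totals the WT values of Ephb2 and Ephb4 turn below 0.

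Marker sums of the non-Paneth libraries differed between the genotypes, while the numbers of cells of each type were not measured. The 8 enterocyte markers, all detected in each group, summed to between 28333 and 31927 CPM in WT non-Paneth and between 7028 and 8803 CPM in GRKO non-Paneth libraries, and 3 of them were called lower. The 5 proliferation markers summed to between 803 and 936 CPM in WT and between 1713 and 1792 CPM in GRKO, and all 5 were called higher. All 5 tuft markers were also called higher. Of all genes tested, 17.5% were higher and 19.8% lower in this comparison. Of the 4 stem markers 3 were called higher, of the 6 goblet markers 2 were called lower, and none of the 7 enteroendocrine markers was called. Epha2 and Efna1 were lower and Ephb2 and Ephb4 higher in the same GRKO non-Paneth libraries, and the part of these shifts in the members' results was not tested. In Paneth libraries enterocyte markers summed to between 475 and 1417 CPM in WT and between 496 and 812 CPM in GRKO, and none of the 8 was called between genotypes. Of the stromal markers, Pdgfra had no counts in any library and the 6 markers summed to at most 17.1 CPM. Vim, the only stromal marker tested, was called higher in GRKO than in WT non-Paneth cells (log2 1.21). It ran from 12.8 to 17.1 CPM in GRKO and from 2.67 to 7.84 CPM in WT non-Paneth libraries.

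**Figure D3:**
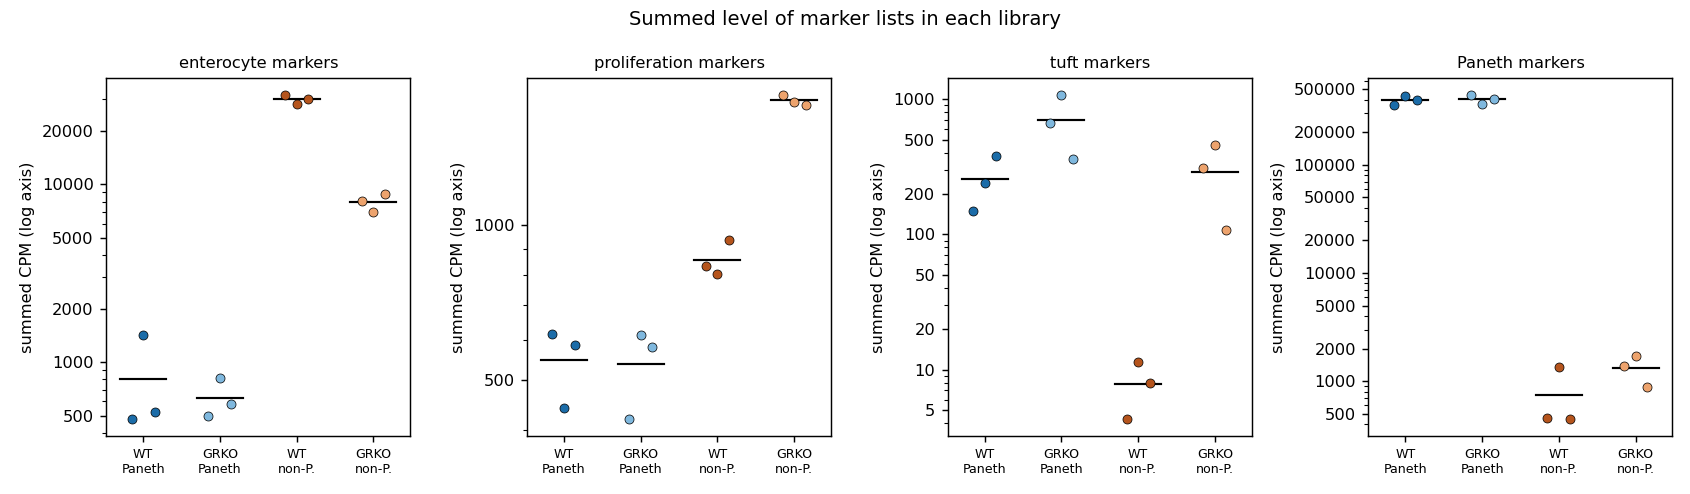
Summed CPM (log axes) of 4 marker lists in the 12 libraries, with 1 point per library and a line at the mean of each group (non-P. stands for non-Paneth). Enterocyte markers lie between 7028 and 8803 CPM in GRKO non-Paneth libraries, below the WT non-Paneth libraries, proliferation markers lie above them, and tuft markers reach 1080 CPM in 1 GRKO Paneth library.

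Ratios between members within a library do not depend on how libraries are scaled. Per kb, Ephb3 over Ephb2 was 2.39, 2.79 and 2.31 in WT Paneth and 2.8, 2.25 and 2.4 in GRKO Paneth libraries, against 0.822, 0.614 and 0.532 in the WT non-Paneth libraries and, in their GRKO counterparts, 0.418, 0.458 and 0.489. Paneth and non-Paneth libraries did not overlap, and the ratio was 4.58-fold higher in Paneth cells over both genotypes (exact permutation test within genotype, two-sided, p = 0.005, adjusted p = 0.03 over 12 tests). With 400 arrangements 0.005 is the smallest p this permutation can give. With labels swapped only within the WT pairs, an alternative chosen after seeing the data, 160 arrangements remained, and neither this ratio nor the next one, each at the smallest p of 0.0125, held after adjustment (exact permutation test, adjusted p = 0.075). Genotype comparisons within a fraction have 20 arrangements and cannot go below 0.1, so that none of them could pass.

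The crypt-base receptors against the B ephrins gave the widest contrast. The ratio (Ephb2+Ephb3)/(Efnb1+Efnb2) was 2.71, 3.07 and 2.85 in WT Paneth and 3.06, 2.32 and 2.85 in GRKO Paneth libraries, against 0.413, 0.312 and 0.369 in the WT non-Paneth libraries and, in their GRKO counterparts, 0.71, 0.71 and 0.678. Summed Ephb2 and Ephb3 thus exceeded summed Efnb1 and Efnb2 in each Paneth library and fell short of them in each non-Paneth library. This order rests on leaving out Ephb4. With Ephb4 added to the receptors, also chosen after seeing the data, the ratio ran from 5.23 to 5.35 in WT Paneth, 4.02 to 5.0 in GRKO Paneth, 0.898 to 1.2 in WT non-Paneth and 2.04 to 2.19 in GRKO non-Paneth libraries, and the fractions differed by 3.26-fold (exact permutation p = 0.005, adjusted p = 0.03). The difference between fractions was 5.56-fold (exact permutation p = 0.005, adjusted p = 0.03). Within non-Paneth cells the 3 GRKO libraries lay above the 3 WT libraries, by 1.93-fold (exact permutation p = 0.1, the smallest possible, adjusted p = 0.12), and within Paneth cells the log2 difference was -0.08 (exact permutation p = 0.7).

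Of the A pair, Epha2 over Efna1 was 0.114, 0.114 and 0.113 in WT Paneth and 0.156, 0.405 and 0.136 in GRKO Paneth libraries, against 0.655, 0.727 and 0.881 in the WT non-Paneth libraries and, in their GRKO counterparts, 0.449, 0.56 and 0.337. It was 3.75-fold lower in Paneth cells (exact permutation p = 0.01, adjusted p = 0.04), a call lost within the WT pairs (adjusted p = 0.1) and on leaving out GRKO Paneth replicate 1 or 3 or GRKO non-Paneth replicate 1 or 2 (adjusted p = 0.06 each), although in GRKO mice the second Paneth library overlapped the non-Paneth libraries. The genotype differences were 0.84 in Paneth and -0.77 in non-Paneth cells on the log2 scale, each with the smallest p possible of 0.1 by the exact permutation test. Efnb2 over Efnb1 ran from 0.0427 to 0.137 in WT Paneth, from 0.163 to 0.311 in GRKO Paneth, from 0.26 to 0.352 in WT non-Paneth and from 0.214 to 0.244 in GRKO non-Paneth libraries. It was 1.85-fold lower in Paneth cells (exact permutation p = 0.045), which did not hold after adjustment (adjusted p = 0.12).

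**Figure D4:**
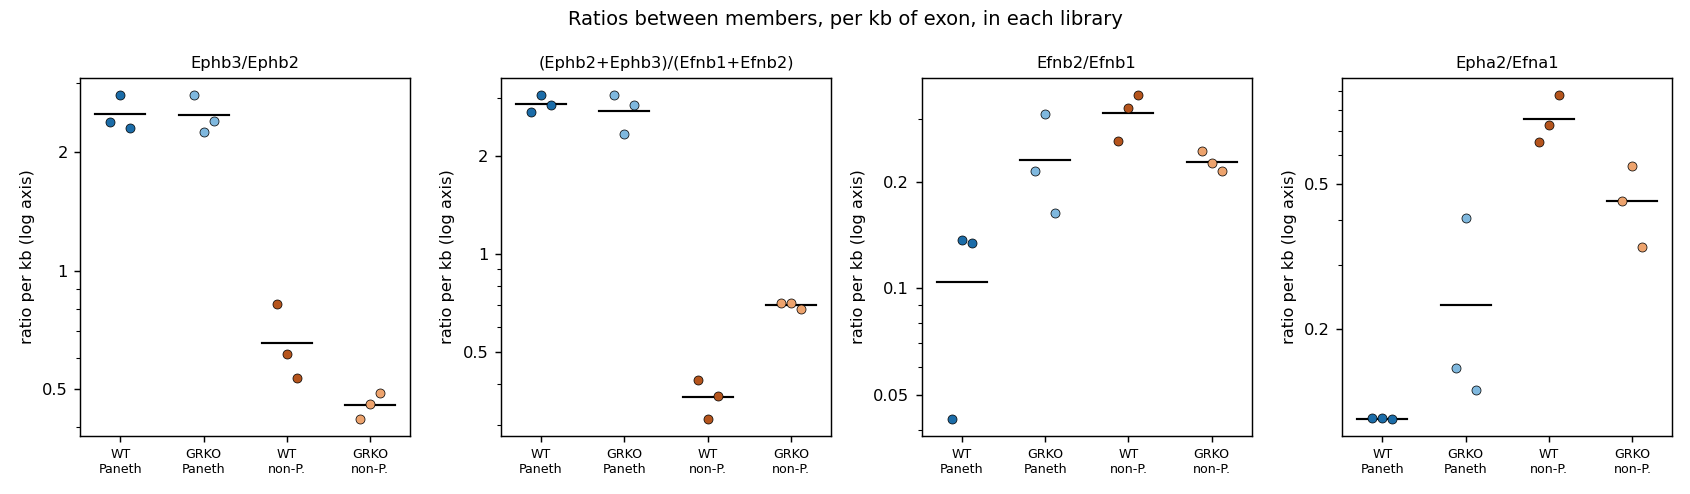
Ratios between members per kb of exon (log axes) in the 12 libraries, with 1 point per library and a line at the mean of each group of 3 (non-P. stands for non-Paneth). Ephb3/Ephb2 is at least 2.25 in Paneth and at most 0.822 in non-Paneth libraries, and (Ephb2+Ephb3)/(Efnb1+Efnb2) is at least 2.32 in Paneth and at most 0.71 in non-Paneth libraries.

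As a share of the 4 receptors per kb, Epha2 was 2.54% ± 0.452 in WT Paneth and 30.6% ± 0.956 in WT non-Paneth cells, and in GRKO 2.46% ± 0.48 in Paneth against 7.49% ± 0.501 in non-Paneth cells (SD, n = 3). Ephb4 took 46.3% ± 2.13 in WT and 62.0% ± 0.157 in GRKO non-Paneth cells. Ephb3 took 37.6% ± 3.05 in WT Paneth and 41.1% ± 2.69 in GRKO Paneth cells, against 9.13% ± 1.63 and 9.54% ± 0.516 in non-Paneth cells of WT and GRKO. The 3 ephrins together came to 18.5 ± 3.21 CPM per kb in WT Paneth and 58.3 ± 5.04 CPM per kb in WT non-Paneth cells, and the 4 receptors to 45.5 ± 4.58 and 55.5 ± 3.49 CPM per kb. In GRKO the ephrins came to 17.7 ± 2.24 CPM per kb in Paneth and 49.6 ± 3.8 CPM per kb in non-Paneth cells, and the receptors to 52.7 ± 9.32 and 81.4 ± 3.58 CPM per kb. The receptors thus exceeded the ephrins in 3 of the groups, while in WT non-Paneth cells the ranges of the sums overlapped. Like the levels, the sums rest on all annotated exons, which for Efna1 are 2.32 times as long as the canonical transcript. The overlap in WT non-Paneth cells is given for that length only. All these sums are of unscaled CPM. CPM without Lyz1 and the Defa genes were 1.81 times higher in WT Paneth and 1.73 times higher in GRKO Paneth libraries. The sums are therefore read within a group and not between fractions.

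Of the other 15 Eph receptors and ephrins, 6 passed the filter on low counts. By the same test as the members, 3 were higher and 2 lower in WT Paneth cells, beside 24% and 26.7% of all genes. In GRKO Paneth cells 1 was lower and none higher, beside 21.2% and 17.9% of all genes. GRKO against WT gave no call in Paneth cells, where 1.7% of all genes were higher and 1.52% lower. In non-Paneth cells 3 were higher and 1 lower, beside 17.5% and 19.8% of all genes. Epha1, the other A receptor at a level above 10 CPM, stood at 13.6, 9.57 and 10.7 CPM in WT Paneth, 11.4, 15.5 and 13.3 CPM in GRKO Paneth, 82.1, 71.6 and 62.1 CPM in WT non-Paneth and 49.7, 47.8 and 47.8 CPM in GRKO non-Paneth libraries. As with Epha2, WT non-Paneth libraries were highest, GRKO non-Paneth next and Paneth lowest, with no overlap between these steps. Epha1 was 3.93-fold lower in WT Paneth cells (adjusted p = 1.56e-08), fell 1.81-fold in GRKO against WT non-Paneth cells (adjusted p = 0.000117) and had an interaction of 1.09 (adjusted p = 0.00145).

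The A ephrins Efna3 and Efna4 moved the other way from Efna1 in non-Paneth cells. Efna4 stood at 19.5, 17.9 and 13.4 CPM in WT and 29.9, 28.2 and 33.9 CPM in GRKO non-Paneth libraries and rose 1.48-fold (adjusted p = 0.0164), and Efna3 rose 1.79-fold (adjusted p = 0.00271), from 4.89 ± 0.303 to 10.7 ± 0.491 CPM (SD, n = 3). Both were higher in WT Paneth than in WT non-Paneth cells after scaling, Efna4 by 2.04-fold (adjusted p = 0.000153) and Efna3 by 1.52-fold (adjusted p = 0.0176), although their CPM overlapped between the fractions. Their interactions were -1.05 (adjusted p = 0.00887) and -0.84 (adjusted p = 0.0412). Epha7 was near the floor, at 1 to 22 counts per library, and its calls rest on that depth. Efnb3, called lower in WT Paneth cells (adjusted p = 0.0465), was also near the floor, at 0 to 7 counts in WT Paneth libraries. Epha5, Epha6, Epha8, Epha10 and Ephb1 had no counts in any library.

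**Figure D5:**
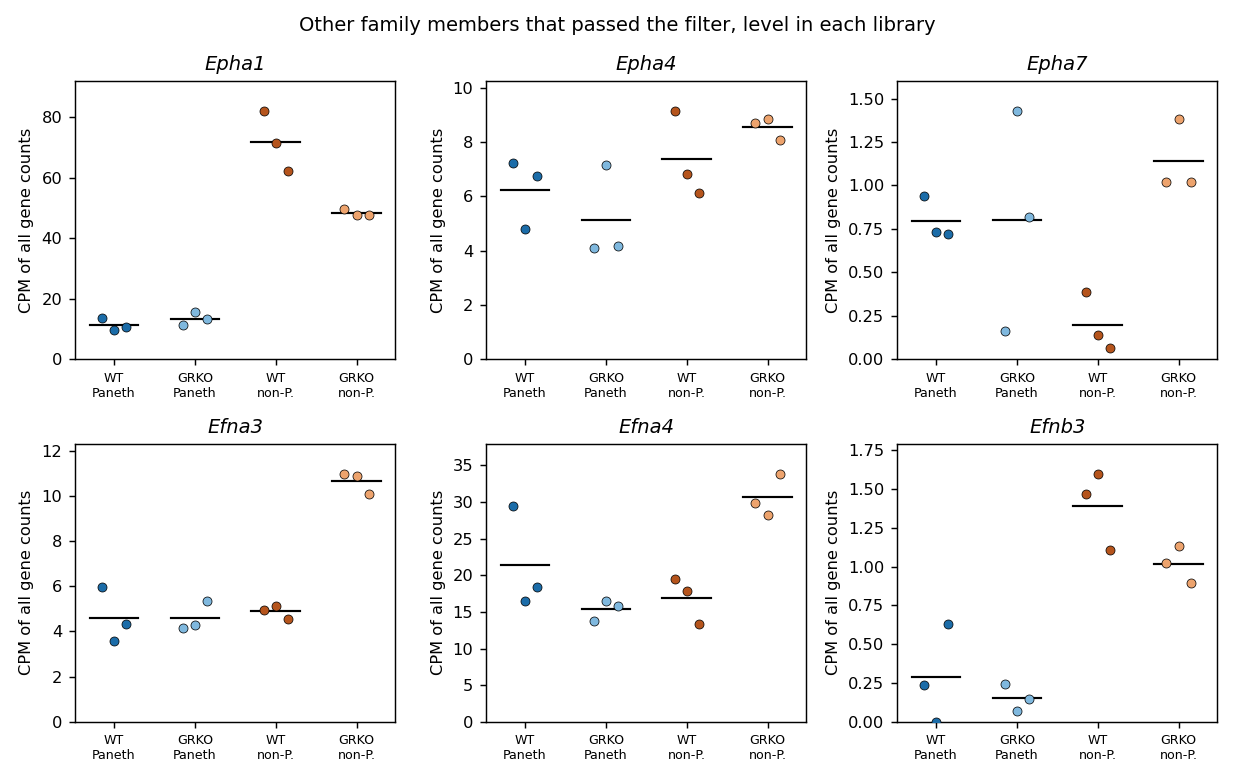
Level of the 6 other family members that passed the filter, in CPM of all gene counts (vertical axes, from 0), with 1 point per library and a line at the mean of each group of 3 (non-P. stands for non-Paneth). Epha1 shows 3 steps without overlap from WT non-Paneth to GRKO non-Paneth to Paneth libraries, and Efna3 and Efna4 are highest in GRKO non-Paneth libraries on the CPM scale, apart from 1 WT Paneth library of Efna4.

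Of 38 signalling partners of the family, 37 were tested. In WT Paneth against non-Paneth cells 6 were higher and 15 lower, with a median log2 fold change of -0.26 beside 0.01 for all genes, of which 24% were higher and 26.7% lower. The tyrosine kinase Fyn was 4.07-fold higher, and the exchange factors Kalrn and Vav2 were 5.02-fold and 3.55-fold lower. In GRKO 6 were higher and 7 lower (median -0.09 beside -0.08, with 17.9% and 21.2% of all genes). Fyn was 2.63-fold higher there (adjusted p = 4.43e-05), although its unscaled CPM overlapped between the fractions. Vav2 was 1.73-fold lower and Adam10, a protease that sheds ephrins, 1.43-fold lower. For GRKO against WT in Paneth cells 2 were higher and none lower (median 0.23 beside 0.03, with 1.7% and 1.52% of all genes), among them the phosphatase Ptpn11 by 1.45-fold (adjusted p = 0.0448). In non-Paneth cells 6 were higher and 4 lower (median 0.07 beside 0.02, with 17.5% and 19.8% of all genes). The Rac exchange factor Tiam1 rose 1.99-fold (adjusted p = 0.000213) and the kinase Abl2 1.52-fold, while Kalrn fell 2.99-fold (adjusted p = 0.000891), Vav2 1.76-fold and Src 1.57-fold. The interaction was called above 0 for 5 partners, with Kalrn at 2.30 (adjusted p = 0.00331), and below 0 for 1, Vav3 at -1.22 (adjusted p = 0.0403), beside 11.5% and 7.27% of all genes.

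Wnt target and crypt base genes, the set to which Ephb2 and Ephb3 are usually assigned, were tested for 17 of 18. In WT Paneth against non-Paneth cells 15 were higher and none lower (median 1.21 beside 0.01), led by Nkd1, a Wnt feedback inhibitor, with a log2 fold change of 4.81 (adjusted p = 1.14e-09). In GRKO 7 were higher and none lower (median 0.39 beside -0.08). Between genotypes 1 was higher and none lower in Paneth cells, Nkd1 at 1.82-fold (adjusted p = 0.0411). The list's median there was -0.15 beside 0.03, on the other side of 0 from Nkd1. In non-Paneth cells 11 were higher and 1 lower (median 0.53 beside 0.02). There the stem cell factor Ascl2 rose 2.09-fold (adjusted p = 0.00238) and Tcf7 1.95-fold (adjusted p = 0.000961), and Tcf7l2 fell 1.52-fold (adjusted p = 0.0153). The interaction was above 0 for 1 and below 0 for 9, with Ascl2 at -1.44 (adjusted p = 0.00793). These counts stand beside the same all-gene percentages as the members. Some of the 15 genes higher in WT Paneth cells, Ascl2 among them, overlapped between the fractions on unscaled CPM. In the same comparison all 4 stem markers, which belong to this list, and all 5 tuft markers were called higher in Paneth cells. All 8 enterocyte markers were lower, and of the 6 goblet markers 1 was higher and 3 lower. The part of the cell mix of each fraction in these results was not tested.

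The genes whose pattern was most like that of each member are given by Pearson r of log2 TMM-scaled CPM over the 12 libraries, among 13050 tested genes and as a description only, since the libraries fall into 4 groups. They were Ints5 (0.976) and Eif3b (0.973) for Ephb2, Ccdc157 (0.994) and Slc1a4 (0.994) for Ephb3, Wee1 (0.959) and Spidr (0.957) for Ephb4, and Tmt1b (0.993) and Arhgap17 (0.991) for Epha2. For the ephrins they were Rxra (0.988) and Ap2m1 (0.986) for Efnb1, Acot11 (0.981) and Cap1 (0.978) for Efnb2, and Dennd2d (0.969) and Nat9 (0.966) for Efna1. Among the members, Epha2 and Efnb1 had an r of 0.91, Efnb1 and Efnb2 of 0.87, Ephb3 and Efnb1 of -0.93 and Ephb2 and Efna1 of -0.91 over the same 12 libraries.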

How the data were processed

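RNA of sorted crypt cells was sequenced after stranded TruSeq library preparation. Per the labels, the RNA came from an Aurum column kit, while the study's methods name an RNeasy kit for Paneth cells. The submitters' processing notes name FastQC, Trimmomatic 0.39, STAR 2.7.10a and DESeq2, and mm39 as the build. The deposited values are raw counts per Ensembl gene, whole numbers that the authors made without normalization. No source used here says whether counting used the strand, so reads of Efnb2, of which 10.3% of exonic bases overlap genes on the other strand, Epha2 (8.5%), Ephb2 (5.0%) and Ephb4 (1.6%) may include antisense transcripts. Symbols were matched for 54749 of 55414 identifiers (98.8%) in GENCODE vM39, which also gave positions and exonic lengths in GRCm39, and that release may differ from the authors'.

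Groups were taken from the titles. The genotype field of the labels follows the cell fraction and not the titles, and was not used. No batch is named, so a batch that follows the groups cannot be told apart from them. Pairs of libraries within a group differed by 13.2 to 50.4 chi-square units per degree of freedom, far above the value near 1 of a library deposited again, and none was left out. Same-numbered WT fractions correlated by 0.349, 0.229 and 0.238 after group means were removed, over the limit of 0.1, and were taken as paired in alternatives only. The GRKO values were 0.0129, 0.262 and 0.465, and between genotypes numbers are only names. The main tests did not use the pairing and treated paired libraries as independent. For comparisons between fractions and the interaction, the replicate block in edgeR paired same-numbered libraries of both genotypes, GRKO included. For GRKO against WT the block joined libraries by number alone, across the genotypes, and so is no pairing of mice. An n of 3 is given for Paneth cells of WT mice, but no source used here says that each library was 1 mouse, so p-values may measure only the spread between libraries.

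Tests on the counts used edgeR 4.0.16 under R 4.3.3 (filterByExpr, TMM, robust glmQLFit and glmQLFTest, 1 mean per group) on 13057 genes with Benjamini-Hochberg adjustment and a threshold of 0.05. The procedure was also run on simulated counts in which the groups differed in a small set of genes only. Those counts lack the wide differences between the fractions, so that run cannot decide how well the scaling works here. Ratios were tested by exact permutation. Alternatives were DESeq2 1.42.0, other scalings and filters, fits restricted to the compared groups, a false discovery rate of 1%, a replicate block, removal of a trend on GC content and exonic length, and libraries left out. The members and gene lists were chosen with earlier results of these data known. Named genes are the members, other family genes past the filter, at most 3 called genes per list and direction with the largest fold and no overlap, the 2 genes of nearest pattern, Nr3c1 and Xist. The endothelial and stromal marker genes named here, and Epha5, Epha6, Epha8, Epha10 and Ephb1, were named after their values were seen. The values of 1 signalling partner are not reported here, though it is in that list's counts.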

Additional observations from a re-analysis of the deposited data

Results flagged for a closer look

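The genotype difference of 4 members differed between Paneth and non-Paneth cells, by the test of the interaction in the edgeR fit. It was -0.52 on the log2 scale for Ephb2, -0.66 for Ephb4, 1.93 for Epha2 and 2.12 for Efnb2. For Ephb2, Ephb4 and Epha2 the genotypes differed past the threshold in non-Paneth cells only, whereas for Efnb2 neither fraction passed it alone in that fit and the differences had opposite signs, although both were called with no filter on low counts. The Ephb2 call was lost in 12 of 22 alternatives, and the values that moved with these results are given in the report.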

How the results depend on the processing

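Of 644 values of the members' log2 fold changes under alternatives, 573 kept their direction and their side of the threshold, 27 changed sign, 19 lost a call and 25 gained one. Of 168 ranks of levels 17 moved, and of 139 values of ratios 7 changed sign, 13 lost and 1 gained a call. The cause was not tested unless stated. Epha2, Efna1, Ephb2 and Ephb4 kept their calls for GRKO against WT non-Paneth cells, and Ephb3, Epha2 and Efnb1 theirs between fractions, in every alternative run. Depth limits Efnb2 and Epha2 in WT Paneth cells, at 35 to 80 and 50 to 89 counts per library.

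On library totals the log2 difference between WT fractions was -0.17 for Ephb2 and -0.33 for Ephb4, leaving 1 member called higher. In GRKO, Ephb2 was -0.96, 6 members were called lower and 10784 of all genes were called, and Efnb1 was 0.10 for GRKO against WT non-Paneth cells. The interaction of Ephb3 was 0.04 with DESeq2 and 0.04 with RLE factors. Ephb2 was -0.06 between the GRKO fractions with no filter on low counts.

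GRKO against WT in Paneth cells was the least stable comparison, with 420 genes called. DESeq2 called 1465 genes and, of the members, 2 higher (Ephb2, Efnb2) and 1 lower (Efna1). No filter gave 1780 genes with 1 member higher (Efnb2) and 1 lower (Efna1). Library totals gave 2 genes, a fit on only these groups 0, a 1% rate 0, and removal of the trend on GC content and length 156. The fit over all groups with a replicate block gave 977, but that block joins the genotypes by numbers that are only names. Leaving out 1 library gave 0 to 1619 genes and 0 to 2 members higher. Of the GRKO Paneth libraries, dropping number 1 gave 1619 genes (Ephb2 and Efnb2 higher), number 2 gave 0 and number 3 gave 41. Of the WT Paneth libraries, dropping number 1 gave 1 gene and number 2 gave 86. Without both WT libraries of number 2 it was 1, and without both GRKO libraries of number 2 it was 1. Ephb4, at 0.03, became -0.04 under the stricter filter, -0.03 in the fit on only these groups, -0.04 after trend removal, -0.01 without both WT and -0.08 without both GRKO libraries of number 2, and ran from -0.07 to 0.09 with 1 library left out. Epha2 was -0.10 without both GRKO libraries of number 2 and ran from -0.10 to 0.33.

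With 1 library left out, Ephb2 ran from -0.11 to 0.17 and Efna1 from -0.30 to 0.11 between the GRKO fractions, with 2 to 4 members lower (4 without GRKO Paneth replicate 2). Without both GRKO libraries of number 2, 4 members were lower and Ephb2 was -0.14. The interaction of Ephb3 ran from -0.17 to 0.12 and was 0.12 without both WT libraries of number 2. The interaction was called below 0 for 1 to 2 members and for 1562 to 2610 genes, the fewest without WT non-Paneth replicate 2. It was called below 0 for 1 member with no filter and for 1 without both WT libraries of number 2. At a rate of 1% it was called for 955 genes, for 1 member above and 0 below 0, and 3002 genes were called for GRKO against WT non-Paneth cells. Without both GRKO libraries of number 2 it was called for 963 genes and 1 member above 0.

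With the length of the canonical transcript, Ephb3 ranked 1, Efna1 2 and Ephb4 3 in WT Paneth, Efna1 3, Efnb1 4 and Ephb2 5 in GRKO Paneth, Efna1 1, Efnb1 2 and Ephb4 3 in WT non-Paneth, and Efna1 3 and Ephb2 4 in GRKO non-Paneth cells. With 1 library left out, Ephb3 and Ephb4 ranked 1 to 2 in GRKO Paneth cells. Likewise, for WT non-Paneth cells, Ephb4 and Efnb1 ranked 1 to 2 and Ephb2 and Efnb2 5 to 6. CPM without Lyz1 and the Defa genes were 1.81 times higher in WT Paneth and 1.73 times higher in GRKO Paneth libraries, with the same ranks.

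Leaving out libraries makes the smallest exact p larger. For Paneth against non-Paneth cells the log2 ratio Epha2/Efna1 ran from -2.15 to -1.76 with 1 library left out, short of the threshold (adjusted p = 0.06) without GRKO Paneth replicate 1 or 3 or GRKO non-Paneth replicate 1 or 2, and Efnb2/Efnb1 from -1.03 to -0.61, called without GRKO Paneth replicate 2. Without both WT libraries of number 2, Ephb3/Ephb2 was 2.14, (Ephb2+Ephb3)/(Efnb1+Efnb2) 2.40 and Epha2/Efna1 -1.92, and without both GRKO libraries of number 2 they were 2.23, 2.54 and -2.07, each short of the threshold. For GRKO against WT in Paneth cells, Ephb3/Ephb2 ran from -0.10 to 0.07, with 0.07 and 0.06 without both WT or both GRKO libraries of number 2, and (Ephb2+Ephb3)/(Efnb1+Efnb2) ran from -0.16 to 0.04, with 0.04 without both GRKO libraries.

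The replicate block called Efna1 between the WT fractions (-0.47, adjusted p = 0.0057) and changed no other call of a member's fold change. Within the WT pairs, chosen after seeing the data, the ratios between fractions that had been called kept their values of 2.20 for Ephb3/Ephb2, 2.47 for (Ephb2+Ephb3)/(Efnb1+Efnb2) and -1.91 for Epha2/Efna1 by construction and lost their calls, since fewer arrangements make the smallest p larger. Between genotypes the samples share only a number.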
